A study of Mus musculus with 2 samples.

Results

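The whey acidic protein family and other soluble whey proteins of mouse milk were followed in mammary epithelial cells with and without functional Cuzd1. The set held 8 genes: Wap, Wfdc18, Wfdc12, Slpi, Wfdc2 and Wfdc1, whose products carry WAP four-disulfide core (WFDC) domains, and the whey genes Glycam1 and Ltf. They were found by their symbol in the platform's probe table, which gave 1 probe set for each gene, 8 of the 45037 non-control probe sets on the array and 8 of the 18193 genes named there. The rule uses no measured value, although the set was proposed with earlier results of these data known.

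Whey is the soluble part of milk that remains when the caseins and fat are removed. The WFDC domain is a small fold held together by disulfide bridges between cysteines. Many proteins with it block serine proteases or kill bacteria. Wap is the main whey protein of rodent milk and is switched on in alveolar cells late in pregnancy by prolactin, acting through STAT5, together with glucocorticoids. Lactoferrin and lactoperoxidase are other antimicrobial proteins of whey.

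Both groups were female mice on day 18 of pregnancy, shortly before birth. The Cuzd1 null mice carried the knockout allele in homozygous form, and the control group were their Cuzd1 heterozygous littermates, which carry 1 disrupted allele, so no wild-type group was analysed here. The strain is given as C57BL/6, reached by backcrossing, and no age is stated in the labels. The disruption was made in embryonic stem cells and was not limited to the mammary gland by any promoter or Cre. Inguinal glands of 5 mice per genotype were digested with hyaluronidase and collagenase and the washed cells were taken as epithelial, with no sort recorded. The RNA of each genotype formed 1 pool on 1 array, so n = 1 per genotype and every difference below is between 2 pools, with no replicate error and no test.

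The values are MAS5 signals in linear intensity units, scaled by the authors so that both arrays have the same trimmed mean (150.001 units). A signal was called measured when it was above its array's median, 34.2 units for the heterozygous and 32.5 units for the null array, and lower signals were raised to that floor before null was divided by heterozygous and the log2 taken. Luminal markers fixed for the cell check, among them Krt8, Krt18 and Elf5, were above the floor on both arrays in 8 of 8 cases, as were 7 of 7 myoepithelial markers. Genes of fibroblasts had higher null readings (6 of 6 above 0, summed signal 7097 and 10749 units). Endothelium (6 of 6, 1035 and 1540 units) and macrophages (7 of 8, 5227 and 6873 units) did too, apart from the macrophage gene Adgre1. Over all 11893 measured genes, 6427 were above 0. Mrc1, among the 7, was above the floor on the null array alone (25.4 and 41.7 units), which favours a ratio above 0. A dimmer probe set of the endothelial gene Cdh5 had a ratio of -0.54. The counts were no lower under the other scalings, but centring and rescaling to the hybridization controls only add a constant. The pools thus also differed in markers of other cells. Their part in the whey gene values was not tested. The single Cuzd1 probe set read 32.4 units on the heterozygous array, under its floor, and 33.98 units on the null array, just above its floor. Cuzd1 was thus not lower on the null array and does not check the genotype labels. Because the material is bulk RNA, fewer cells of a type and less RNA per cell cannot be told apart.

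Of the 8 whey genes, 7 were above the floor on both arrays and Wfdc1 was above neither. Among the 7, Wfdc12 was at least 2-fold higher in the null pool and none was at least 2-fold lower. Across all 24260 measured probe sets, 0.965% were higher in the null pool by this margin, 1.19% were lower by it and 2.15% were apart by it in either direction. The median log2 ratio of the 7 genes was -0.16, beside 0.03 over all 11893 measured genes. As deposited, 6 of the 7 lay below 0, as did 5466 of all 11893 measured genes. Only 3 of the 7 did when the arrays were rescaled to the hybridization controls and 4 after quantile normalization. No common direction is therefore given for the family. The same rescaling to the hybridization controls moved the counts over all probe sets from 234 higher and 288 lower to 639 higher and 127 lower.

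**Figure D1:**
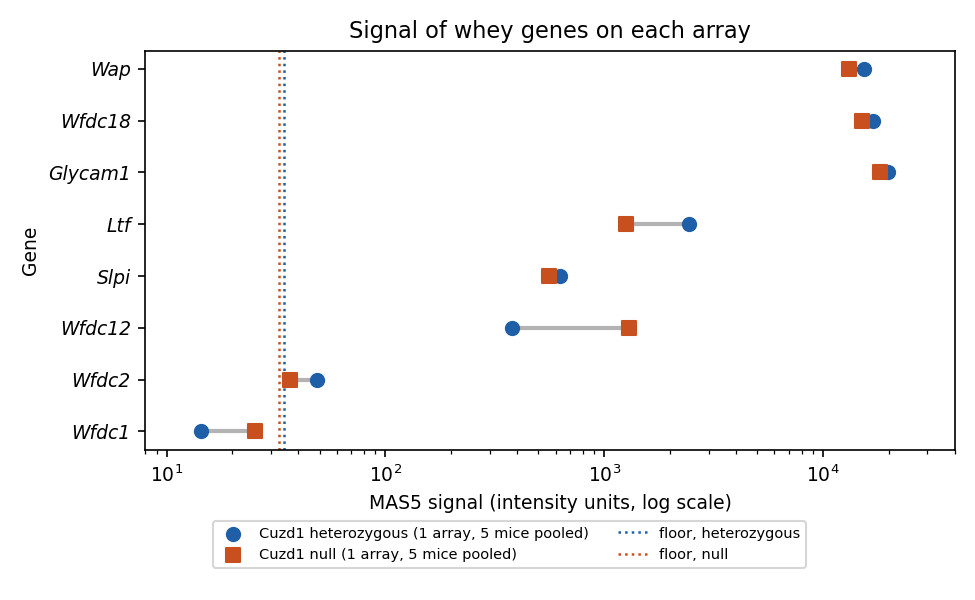
MAS5 signal of each whey gene (x axis, intensity units on a log scale) on the heterozygous array (circles) and the null array (squares), 1 array of 5 pooled mice per genotype, with a grey line joining the pair and dotted lines at the floors. Wfdc12 moves from 379 to 1298.5 units and Ltf from 2439 to 1263 units, while the other measured genes stay close together and Wfdc1 lies under both floors.

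Wap, the main whey protein, read 15403 units in heterozygous and 13117 units in null cells. The null signal was 14.8% lower, a log2 ratio of -0.23. The 400 measured probe sets closest in signal, used here as a description of ordinary spread between genes and not as replicate error, had a median ratio of -0.09 with a robust SD of 0.11. Rescaled to the hybridization controls, the ratio of Wap was -0.00, and after quantile normalization it was -0.06. Wap gave a bright signal in both pools, and the size of its small difference rests on how the arrays are scaled.

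Wfdc18, also known as WDNM1 or Expi, a small secreted protein with a single WFDC domain, read 16849 units in heterozygous and 15116 units in null cells. The ratio was -0.16 as deposited, 0.01 after quantile normalization and 0.07 on the hybridization control scale, so it changed sign with the scaling. Its probe set has the suffix _s_at, which marks probes that can match more than 1 transcript.

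Glycam1, a mucin-like glycoprotein that is secreted into milk and also carries the ligand of L-selectin in high endothelial venules, read 19898 and 18299.6 units. These were the maximum signals of the 2 arrays. Its log2 ratio was -0.12, and 0.11 on the hybridization control scale. Among markers of high endothelial venules, Chst4 was above neither floor, Madcam1 read 146 and 77.7 units, Fut7 11.4 and 38.8 units, and Ackr1 368 and 642 units. The summed signal of the 4 markers with a probe set was 538 units in heterozygous and 771 units in null cells. Of the 4, 3 were measured, Fut7 on the null array alone.

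The bright signals of Wap, Wfdc18 and Glycam1 lay in the range where ratios of all genes were narrow. Among 122 probe sets with a mean signal over 10000 units, the ratios ran from -0.32 to 0.06 with a median of -0.11, and 115 of them were below 0. Only 8 of these probe sets had a ratio as low as that of Wap, itself included. Within the casein gene Csn1s2a, the brightest probe set had a ratio of -0.22 (16941 and 14513 units) and another bright one -0.16. Dimmer ones had -3.52 (1448 and 126 units) and -3.55 (991 and 84.7 units). Csn3 had -0.11 at its brightest probe set and -1.11 at a dimmer one (473 and 219 units). The other probe set of Csn2 was also bright (13370 and 12329 units), with a ratio of -0.12. Whether the signal of the brightest probe sets was compressed was not tested for the whey genes, each of which had a single probe set.

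Promoter sequences are shown for Glycam1, whose window holds a STAT5 motif, and for Wap, whose window does not. Each runs from 250 bases before to 50 bases after the transcription start, 5′ to 3′ on the gene's strand, from RefSeq on GRCm38.p6. Wap lies at chr11:6638600-6638899 and Glycam1 at chr15:103565032-103565331, both on the minus strand. Capitals mark the nuclear factor I motif (TTGGC or its reverse complement) in Wap and the STAT5 motif TTCNNNGAA in Glycam1.
Wap: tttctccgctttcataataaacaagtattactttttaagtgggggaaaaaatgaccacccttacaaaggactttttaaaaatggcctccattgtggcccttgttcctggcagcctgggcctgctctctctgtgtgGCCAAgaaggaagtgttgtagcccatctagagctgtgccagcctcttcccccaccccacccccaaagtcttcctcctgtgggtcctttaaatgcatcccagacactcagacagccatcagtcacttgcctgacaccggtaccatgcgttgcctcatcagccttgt
Glycam1: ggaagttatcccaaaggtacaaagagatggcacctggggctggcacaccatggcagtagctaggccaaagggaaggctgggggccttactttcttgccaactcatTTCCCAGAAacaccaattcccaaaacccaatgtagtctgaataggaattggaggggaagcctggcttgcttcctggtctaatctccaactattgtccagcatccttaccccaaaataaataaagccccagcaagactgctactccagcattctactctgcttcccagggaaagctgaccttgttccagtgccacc

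STAT5 motifs were searched in the windows of the 7 whey genes that had one, all but Wfdc1. TTCNNNGAA, which reads the same on both strands, was found in Glycam1 alone, as TTCCCAGAA starting at -145 from the transcription start. The motif occurred in 8.3% of all 32851 promoter windows of the same length. The nuclear factor I motif, searched on both strands, was present in 5 of the 7 whey gene windows, once each in Wap (at -115), Wfdc18, Wfdc2 and Wfdc12 and at 2 places in Glycam1, where it is not in capitals. It occurred in 46.7% of all windows. These matches describe the letters of a short window and not bound sites, and the windows leave out more distant control regions.

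Wfdc12 had the largest difference among the whey genes. It encodes a secreted antibacterial protein with a single WFDC domain. Its signal was 379 units in heterozygous and 1298.5 units in null cells, 3.43-fold higher, a log2 ratio of 1.78. Both readings were clear of the floor, by 11.1 times on the heterozygous and 39.9 times on the null array. The 400 measured probe sets closest in signal had a median ratio of 0.03 and a robust SD of 0.25. Of all 24260 measured probe sets, 25 had a ratio at least as high, and of all 11893 measured genes, 8 did, Wfdc12 included.

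The ratio of Wfdc12 lay between 1.74 and 2.00 under all 7 alternatives. Moving or removing the floor could not change it, because both readings were far above each floor. Centring (1.75) and rescaling to the hybridization controls (2.00) only add a constant shared by all probe sets. Quantile normalization gave 1.77 and the pseudocount 1.74. Relative to Wap on the same arrays, Wfdc12 differed by 2.01 on the log2 scale as deposited. That contrast is the same whatever factor scales an array, and it was 1.83 after quantile normalization. Wap lies among the brightest signals, where the ratios of all probe sets were narrow, so this contrast is given as a value only.

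**Figure D2:**
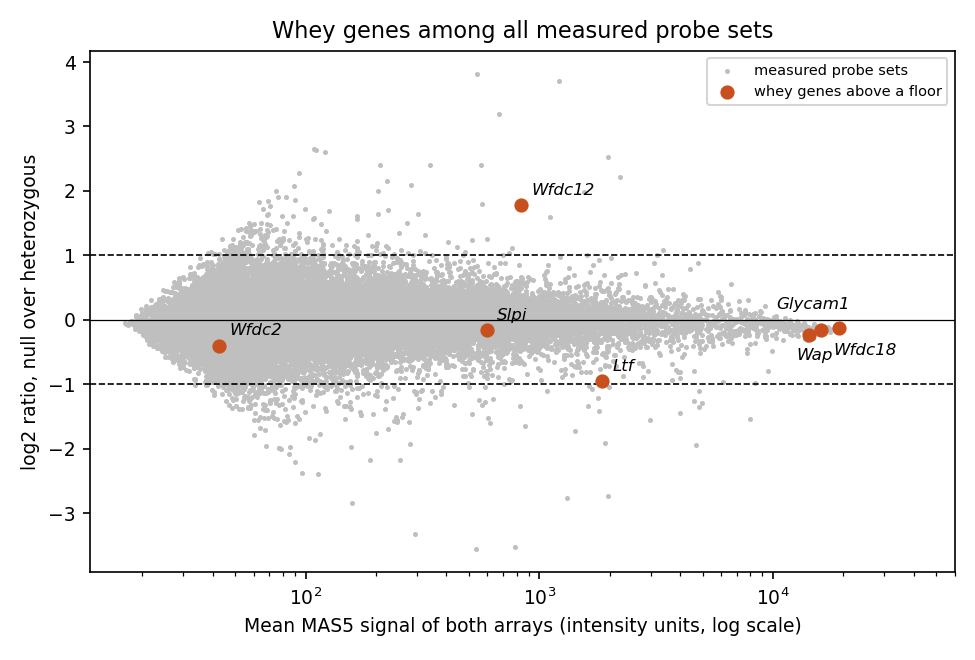
Log2 ratio of null over heterozygous (y axis) against mean MAS5 signal of both arrays (x axis, log scale) for the 24260 measured probe sets (grey) and the 7 measured whey genes (orange), with dashed lines at 2-fold. Wfdc12 stands at 1.78 and Ltf at -0.95, whereas Wap, Wfdc18 and Glycam1 lie inside the narrow band of the brightest probe sets.

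The promoter window of Wfdc12 is shown because this gene stands apart from the others and its window carries a repeat. It lies at chr2:164190509-164190808 on the minus strand of GRCm38.p6 (RefSeq), and capitals mark each CACCAG.
Wfdc12: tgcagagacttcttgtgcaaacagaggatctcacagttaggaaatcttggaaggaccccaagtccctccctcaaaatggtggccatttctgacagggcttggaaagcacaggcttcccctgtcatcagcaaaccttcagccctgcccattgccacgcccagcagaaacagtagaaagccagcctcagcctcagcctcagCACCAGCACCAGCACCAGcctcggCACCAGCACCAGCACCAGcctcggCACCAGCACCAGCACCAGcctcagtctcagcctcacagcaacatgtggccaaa

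CACCAG occurred 9 times in this window, counted on both strands, in triplets separated by short spacers around the transcription start. At least 1 copy was found in 19.8% of the 32851 windows, and 9 or more in 3 of them. CACCAG is the repeat unit of this window and the cutoff of 9 is its own count, so Wfdc12 is 1 of the 3. These shares describe a motif taken from the window and are no test of its rarity. Neither the STAT5 motif nor TATAAA, which 13.6% of windows hold, was found in the Wfdc12 window. Among the whey genes with a window, TATAAA was found in Wfdc18 alone, at -31. No measurement in these data bears on the repeat itself.

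Wfdc12 lies in the WFDC cluster of chromosome 2, beside Slpi, Wfdc2 and many relatives. Of the 32 protein-coding genes from Wfdc5 to Wfdc3 in RefSeq order, 22 had a probe set and 10 were measured. Wfdc12 was the only one of those 10 to pass the 2-fold rule upward, and none passed it downward. The shares over all measured genes were 1.12% upward and 1.03% downward, so neighbours short of 2-fold are the usual case. The nearest relatives of Wfdc12 in the cluster, Wfdc5, Wfdc15a and Wfdc15b, were above neither floor. Of the 10, Svs5 and Wfdc6a were above the floor on the heterozygous array alone. The median ratio of the 10 was -0.12. Farther along, Sdc4, a cell surface proteoglycan, read 2043 and 1445 units (-0.50) and Pigt, an enzyme subunit that attaches lipid anchors to proteins, 75.7 and 98.0 units (0.37). Upstream of the cluster, Stk4, a kinase of the Hippo pathway, had a ratio of 0.63. These neighbours were named after their values were seen.

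**Figure D3:**
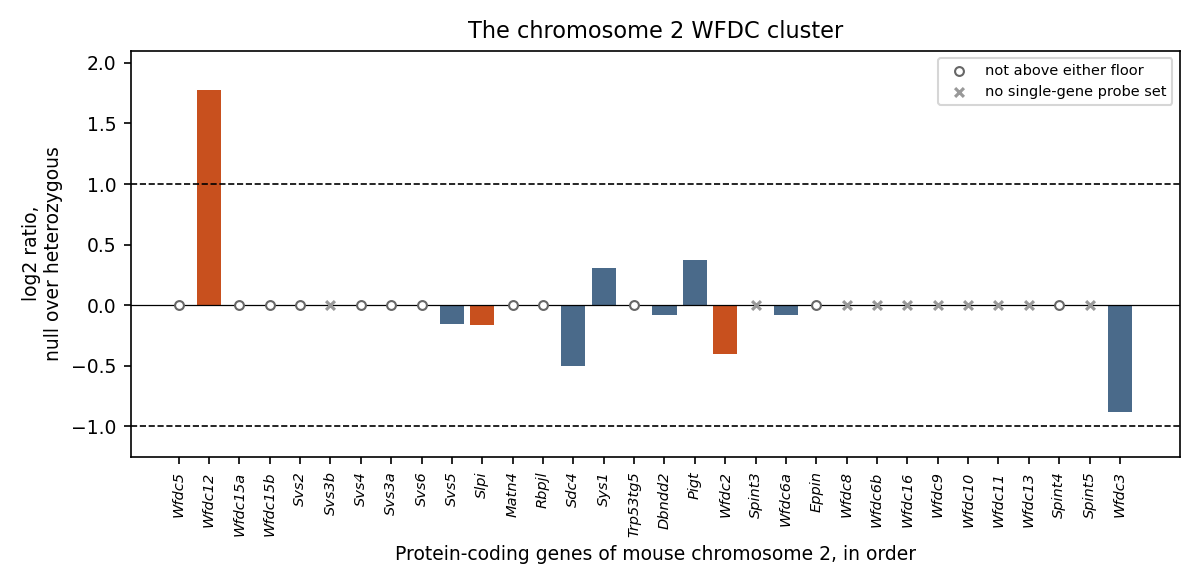
Log2 ratio of null over heterozygous (bars) for protein-coding genes in chromosomal order from Wfdc5 to Wfdc3, with whey genes in orange, open circles for genes above neither floor, crosses for genes with no single-gene probe set and dashed lines at 2-fold. Wfdc12 at 1.78 is the 1 bar past 2-fold among 10 measured genes, beside 2.15% of all measured genes.

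Slpi, the secretory leukocyte protease inhibitor, which blocks neutrophil elastase and cathepsin G, read 627 units in heterozygous and 562 units in null cells. Its ratio was -0.16, beside a median of -0.01 and a robust SD of 0.27 among probe sets of similar signal. On the hybridization control scale it was 0.07. Wfdc2, known as HE4, a secreted protein of many epithelia with a pair of WFDC domains, was barely measured, at 48.5 and 36.8 units. Its ratio of -0.40 lies within a region of dim signals where the robust SD was 0.55, and with the floor at the 75th percentile it was not measured at all. Wfdc1, known as ps20, a growth inhibitor first studied in stroma, read 14.4 and 25.5 units, both under the floor, so no fold is given. Fibroblast markers were measured in 6 of 6 cases on the same arrays.

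Ltf, lactoferrin, which binds iron and limits bacterial growth, had the lowest ratio of the set. It read 2439 units in heterozygous and 1263 units in null cells, 1.93-fold lower, a log2 ratio of -0.95, which is short of 2-fold. Probe sets of similar signal had a median of 0.00 and a robust SD of 0.22. The ratio lay between -0.98 and -0.72 under the 7 alternatives, the smaller difference being that on the hybridization control scale. As for Wfdc12, moving or removing the floor could not change it, and centring and rescaling only add a constant. Of the 11893 measured genes, 142 had a ratio as low, Ltf included.

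Lactoferrin is also stored in granules of neutrophils, so their markers were read on the same arrays. Of 8 neutrophil genes with a probe set, 5 were above neither floor: Camp, Mpo, Elane, Mmp8 and Cxcr2. The summed signal of all 8 was 457 units in heterozygous and 465 units in null cells. The other 3 were measured on both arrays: S100a8 had a ratio of -0.33, S100a9 of 0.36 and Ngp, another granule protein, of 0.93 (34.4 and 65.4 units). The part of neutrophils in the Ltf value was not tested. Skin markers were read beside Wfdc12 in the same way, because keratinocytes can express WFDC genes. Of 8 such genes, Krt1, Flg, Ivl and Krtdap were above neither floor, and the summed signal of the list was 1045 units in heterozygous and 772 units in null cells. Most of that sum came from Krt5 (679 and 491 units), which is also a myoepithelial marker. Krt10 had a ratio of -0.86, Lor of -0.43 and Sprr1a of 0.52 (58.1 and 83.0 units). The part of keratinocytes in the Wfdc12 value was not tested.

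Other genes with WFDC domains gave few readings. The 19 listed names included Expi, which is another name of Wfdc18 and so not a further gene. Of the 19, 11 had a single-gene probe set and 3 were measured. None of the 3 was 2-fold apart, beside a share of 2.15% over all measured genes. Their median ratio was -0.73, or -0.51 on the hybridization control scale. Of the 3, Wfdc6a was above the floor on the heterozygous array alone (34.3 and 17.5 units). Wfdc3 read 1621 and 882 units (-0.88) at a probe set whose partner was above neither floor (4.21 and 23.0 units), so the Wfdc3 value rests on 1 of 2 probe sets. Wfdc17, which myeloid cells express on activation and which adjoins Wfdc18 on chromosome 11, read 360 and 217 units (-0.73). Of 8 macrophage markers, 7 were above 0, Mrc1 among them with a signal above the floor on the null array alone. The part of myeloid cells in the Wfdc17 value was not tested. In the chromosome 11 stretch of Wfdc18 and 5 protein-coding genes on each side of it, 9 genes were measured, Wfdc18 included. None of the 9 was 2-fold apart, beside a share of 2.15% over all measured genes. Among the 9, the chemokine genes Ccl3 and Ccl4 had ratios of -0.37 and -0.53 and Ccl9 of 0.01, named after their values were seen.

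**Figure D4:**
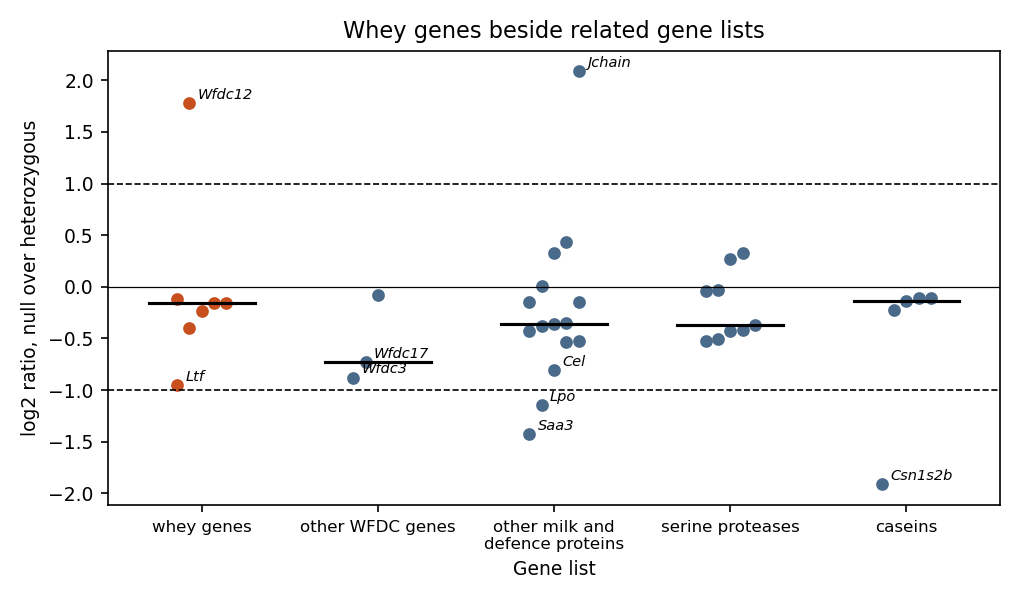
Log2 ratio of null over heterozygous for each measured gene (points) of the whey genes and 4 related lists, with the list median as a black bar and dashed lines at 2-fold. The whey genes have a median of -0.16, with Wfdc12 high at 1.78 and Ltf low at -0.95.

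Other soluble milk and defence proteins were read as a list of 20, of which 17 had a probe set and 15 were measured. Of these, 11 were below 0 as deposited and 9 on the hybridization control scale, with medians of -0.36 and -0.13. Of all 11893 measured genes, 5466 were below 0 as deposited. In the list, 1 passed the 2-fold rule upward and 2 downward as deposited, beside shares of 1.12% and 1.03% over all measured genes. Lpo, lactoperoxidase, which makes antimicrobial oxidants in milk, read 521 and 236 units, 2.21-fold lower, but less than 2-fold on the hybridization control scale. Saa3, an acute phase protein that mammary epithelium also makes, read 145 and 54.0 units, 2.69-fold lower. Jchain, the joining chain of secreted antibodies, read 108 and 458 units, 4.25-fold higher, and is also a plasma cell marker. Igha, the heavy chain of IgA and an antibody gene of the same list, went the other way at all 3 of its probe sets, with ratios of -0.38 at the brightest (257 and 197 units), -0.32 and -0.80. The 4 measured markers of B and plasma cells were all above 0, but only Jchain itself was above both floors. Cd79a, Ms4a1 and Mzb1 were above the floor on the null array alone, which by itself puts nearly any ratio above 0. The 5 with a probe set summed to 208 and 656 units, of which Jchain gave 108 and 458 units.

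Members of this list between these values, named after they were seen, included further whey proteins. Lalba, the lactose synthase subunit and a major whey protein, read 4911 and 3416 units (-0.52). Lcn2, which sequesters bacterial siderophores, read 9396 and 7352 units (-0.35). The lysozyme genes Lyz1 and Lyz2, which digest bacterial walls and are also bright in macrophages, went the other way with ratios of 0.33 and 0.43. The Lyz1 probe set used has the suffix _x_at, which marks probes that can match other sequences. The Lyz1 probe set without that suffix was above neither floor (30.1 and 11.2 units). Whether the Lyz1 value is separate from Lyz2 was not tested. Antimicrobial genes of milk thus lay on both sides of 0, with Wfdc12 and Lyz2 above and Ltf, Lpo and Lcn2 below as deposited.

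Serine proteases, the class of enzyme that WFDC proteins can block, were measured for 9 of 19 genes. Of the 9, 7 were below 0 as deposited and 5 on the hybridization control scale, with medians of -0.37 and -0.14. Below 0 as deposited were 5466 of all 11893 measured genes. None of the 9 was 2-fold apart, beside a share of 2.15% over all measured genes. St14, matriptase, an epithelial surface protease, read 2190 and 1522 units (-0.52), and Prss8, prostasin, its partner, 790 and 611 units (-0.37). Elane and Ctsg, the leukocyte targets of Slpi, were above neither floor. Caseins, the other class of milk protein, were measured for 5 of 5 genes at their brightest probe set, with a median of -0.14 that was 0.09 on the hybridization control scale, and Csn1s2b was 3.76-fold lower (3011 and 799.7 units). Wap, Wfdc18 and Glycam1 lay between -0.23 and -0.12, and the 4 other caseins lay between -0.22 and -0.11 at their brightest probe set. Dimmer probe sets of Csn1s2a and Csn3 were lower, as given above.

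With 2 arrays, a pattern over samples is only a pair of signals, so likeness was measured as the distance between pairs of log2 signals. Nearest to Wfdc12 were Sema4c at 0.47, Aplnr at 0.52 and Il17b at 0.63 log2 units. Nearest to Ltf were Nucb2 at 0.13, Pank3 at 0.14 and Cald1 at 0.21. Nearest to Wap were Tpt1, Rps29 and Rpl41, at 0.03, 0.04 and 0.06, which are genes for translation-related proteins with high signal in most cells. Signals of different probe sets are not on a common scale of transcript abundance, so these distances describe array readings only.

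**Figure D5:**
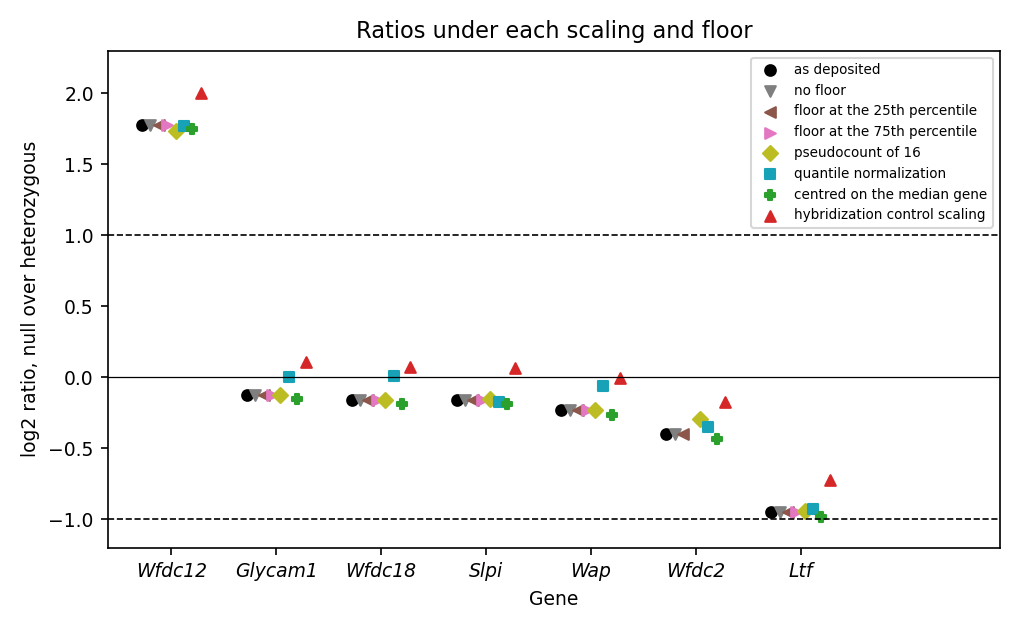
Log2 ratio of null over heterozygous (y axis) for each measured whey gene under the deposited scaling (black circles) and the 7 alternative floors and scalings (other symbols), with dashed lines at 2-fold. Wfdc12 stays between 1.74 and 2.00 and Ltf between -0.98 and -0.72, while Glycam1, Wfdc18 and Slpi change sign on the hybridization control scale.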

How the data were processed

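Per the submitters' processing notes, the authors ran MAS5 in Affymetrix Expression Console (version 1), and the deposited table holds the resulting linear intensity of each probe set. No genome build is given in the sources used here. Of 45101 probe sets, 64 were controls, 34945 others had 1 gene symbol, 932 had several and were not named, and 9160 were not listed in the platform's table. The symbols of 34741 probe sets were matched to RefSeq symbols by Entrez ID, whether or not the symbol changed. A gene with several probe sets was represented by the one with the highest mean signal. The robust SD is taken from the median absolute deviation. The 2-fold rule is one of size. The calculation was tested on simulated data. Planted differences were larger than 2-fold, in bright probe sets, with a smaller spread than these arrays show. That test checks the calculation only and not the precision of these arrays. With 1 array per genotype, the number of arrays limits the precision and no p-value is given.

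The members, lists and the rule for naming genes were chosen with earlier results of these data known. The rule took all members, the list genes at least 2-fold apart or else the 2 brightest, and the 3 nearest genes to Wfdc12, Ltf and Wap. Alternatives covered the floor, a pseudocount, quantile normalization, centring and rescaling to 9 hybridization control probe sets (median log2 ratio -0.23). Protein features of the members were not analysed here. Python 3.11.15 and pandas 2.3.3 were used.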

Additional observations from a re-analysis of the deposited data

How the results depend on the processing

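The count of whey probe sets at least 2-fold higher was 1 under all 9 alternatives. Several of these could not change it, since Wfdc12 lies far above the floors and its probe set lacks the _x_at and _s_at suffixes. The count at least 2-fold lower was 0 under 8 of 9. It was 1 with a 1.5-fold rule, which Ltf passes and which 6.41% of measured probe sets pass downward. The median ratio of the whey genes of -0.16 ran from -0.19 to 0.068 over 8 alternatives. Averaging over the probe sets of a gene was among these and could not change it, as each gene had 1. The median turned above 0, to 0.068, with rescaling to the hybridization controls, where the shift comes from the scaling factor itself. Wfdc12, Slpi and Wfdc2 moved by less than the robust SD of probe sets of similar signal under each alternative that gave a value. Glycam1, Wfdc18 and Wap moved by more under 2 of 7, and Ltf under 1 of 7. Rescaling to the hybridization controls and centring each shift all these genes by the same amount. There, moving by less or more than the SD depends on the SD alone (0.25 for Wfdc12, 0.27 for Slpi, 0.22 for Ltf). It does not rank the genes by how steady they are. With the floor at the 75th percentile Wfdc2 was not measured, and with the floor at the 25th percentile all 8 genes were. No paired analysis was possible because each genotype has 1 array, and for the same reason no array could be left out. Detection calls were not used here, so signals near the floor, those of Wfdc2 and Wfdc1, are the least certain.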
